A study of Mus musculus with 8 samples.

Results

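Oligodendrocytes wrap axons in myelin, a stack of lipid-rich membrane, and arise throughout life from dividing precursor cells. A precursor that leaves the cell cycle passes through a short premyelinating state, and then switches on the genes for myelin proteins and myelin lipids under the transcription factors SOX10, OLIG1, OLIG2 and MYRF. The hippocampus holds these cells among its neurons and, at higher density, in the fibre sheets next to it, of which the alveus lies directly on CA1. A set of 39 genes of this lineage was read from RNA sequencing of tissue labelled hippocampal CA1, chosen by name from a table of 34094 genes, and all 39 passed the filter on low values described below. By stage the set holds 4 precursor genes, 6 premyelinating genes, 4 lineage transcription factors and 25 genes of mature, myelinating cells.

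The tissue came from C57BL/6 mice of 2 months, with 4 wild-type (WT) libraries and 4 in which Brpf1 was conditionally knocked out (cKO), which the sample titles also call a knockdown. Brpf1 encodes a scaffold of histone acetyltransferase complexes and is linked to intellectual disability. The series title calls the loss hippocampus-specific, but the driver of the deletion, and so the cell types that lost Brpf1, is not stated in the labels, and neither is whether WT mice carried any allele or agent of the knockout line. The labels name 4 samples a group and a protocol 3 mouse pairs, so which mouse each library came from is not known, and p-values measure the spread between libraries, which may be partly technical. Levels are given as normalized reads, that is, the reads of a gene after division by the size factor of its library. Fold changes are differences of mean log2(normalized reads + 1), cKO minus WT, a scale on which genes with few reads show too small a change.

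Reads on genes ranged from 42346644 to 49897832 in WT and from 40330226 to 46559795 in cKO libraries. The targeted gene Brpf1 (ENSMUSG00000001632) had 1358, 1451, 1473 and 1380.1 normalized reads in WT replicates 1 to 4. In cKO replicates 1 to 4 it had 848, 1032, 897 and 1004, so the groups did not overlap. Its cKO mean was 66.8% of WT, with a log2 fold change of −0.59 (SE 0.089, limma unadjusted p = 5.07e-05, limma adjusted p = 0.132). The comparison that the authors made themselves lists Brpf1 at an FDR of 1.47e-07. Markers of CA1 neurons, of other neurons and of 7 further cell types were detected in every library, with no listed marker at 0 in any library. Dentate granule neuron markers were among them, with WT means of 4880 normalized reads for Prox1 and 2437 for C1ql2. Across all 26135 genes tested, 3 genes (0.0115%) were lower and 2 (0.00765%) higher in cKO at a limma adjusted p under 0.05. In bulk tissue, fewer cells of a type and less RNA per cell cannot be told apart.

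Of the 25 mature genes, 22 had lower mean log2 values in cKO than in WT, while the 4 precursor genes were split evenly between both signs. The stage mean of the mature genes overlapped between the groups, from 10.8 to 11.2 in WT and from 10.4 to 11.1 in cKO on the log2 scale. The median log2 fold change was 0.018 over the 4 precursor genes, 0.11 over the 6 premyelinating genes, −0.12 over the 4 transcription factors and −0.27 over the 25 mature genes, against −0.018 over all genes tested. No lineage gene passed the test across all genes, and the lowest limma adjusted p among them was 0.496. Before adjustment, 5 of the 39 (12.8%) had a p under 0.05 and were lower in cKO, where 4.6% of all genes tested were, and 1 (2.56%) was higher, against 4.07%. The 5 lower genes were Enpp6, Ermn, Opalin, Ninj2 and Ppp1r14a, and the higher gene was Bcas1. In all, 30 of the 39 had a negative fold change (76.9%), against 52.7% of all genes tested. The plot of fold changes by stage shows that the negative values lay mostly among mature genes.

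**Figure D1:**
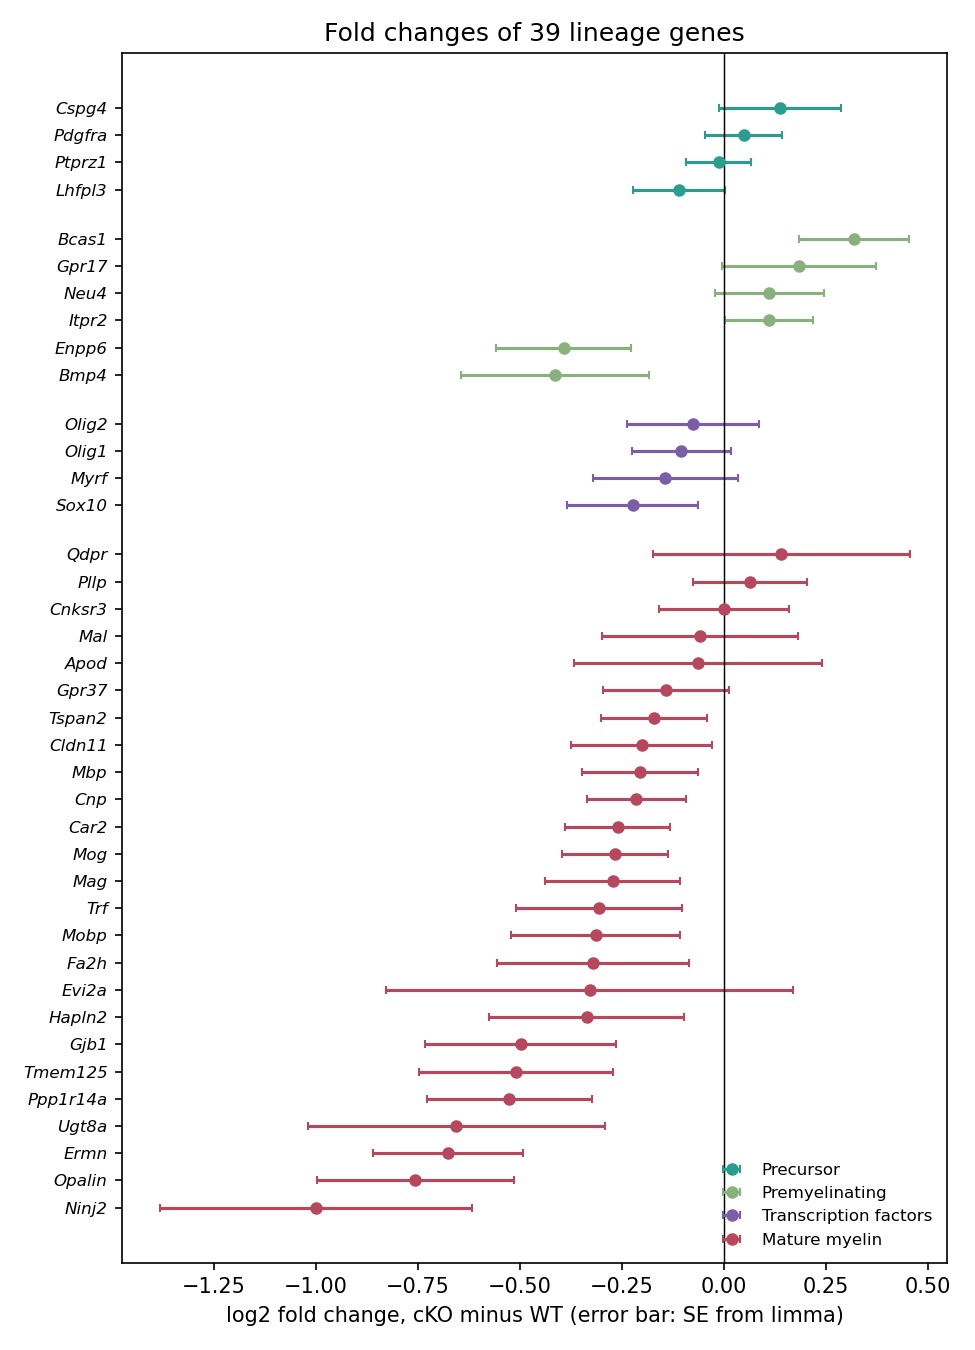
Log2 fold change (cKO minus WT, x axis) of the 39 lineage genes, grouped and coloured by stage, with the standard error from limma as bar. The 4 precursor genes lie between −0.11 and 0.14, while the mature genes run from −1.0 for Ninj2 to 0.14 for Qdpr, with 22 of 25 below 0.

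The counts moved with single libraries. Without cKO replicate 4 the number of lineage genes lower at an unadjusted p under 0.05 was 12, and it was 3 when WT replicate 1 or 3, or cKO replicate 1 or 2, was left out. The number that was higher was 0 when WT replicate 2 or 4, or cKO replicate 2 or 3, was left out. The median of the mature genes was −0.16 without cKO replicate 1 and lay between −0.19 and −0.35 without any other single library. The stages were described by their medians and counts, and differences between stages were not tested.

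Among the precursor genes, Pdgfra (ENSMUSG00000029231) encodes the receptor for the growth factor that keeps precursors dividing, and is also expressed by fibroblasts of the meninges. It had 2256, 2044, 2536 and 2434 normalized reads in the WT and 2257, 2648, 2177 and 2508 in the cKO libraries, for a log2 fold change of 0.049 (SE 0.095, limma adjusted p = 0.918). The groups overlapped almost completely. Cspg4 (ENSMUSG00000032911), which encodes the NG2 proteoglycan of precursors and pericytes, had 381, 508, 604 and 489.7 in WT and 587, 555, 460.0 and 559 in cKO. Its highest and its lowest value were both from WT libraries, and its log2 fold change was 0.14 (SE 0.15).

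Lhfpl3 (ENSMUSG00000106379), a membrane protein gene enriched in precursors, had 1060.1, 833, 945 and 1087 normalized reads in WT libraries and 936, 901, 796 and 998 in cKO, with 1 cKO library below all of WT. Ptprz1 (ENSMUSG00000068748), a receptor phosphatase gene shared with astrocytes, had 10838, 9164, 10341 and 8980.0 in WT and 10156, 9462, 9190.4 and 10086 in cKO. Its cKO values all fell inside the range of WT. These 2 genes had negative fold changes, −0.11 (SE 0.11) for Lhfpl3 and −0.013 (SE 0.079) for Ptprz1, whereas the stage median was positive. Summed over the 4 genes, precursor reads ran from 12548 to 14535 in WT and from 12624 to 14151 in cKO.

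The premyelinating genes did not move as 1 group, with 4 positive and 2 negative fold changes. Enpp6 (ENSMUSG00000038173), a choline phosphodiesterase gene that marks newly forming oligodendrocytes, had 402, 258, 410.0 and 345 normalized reads in WT libraries and 283, 236, 256 and 288 in cKO. All 4 cKO libraries lay below 3 of the 4 WT libraries, but 2 of them lay above WT replicate 2. The mean was 354 ± 70.0 in WT against 266 ± 24.4 in cKO (SD, n = 4), for a log2 fold change of −0.39 (SE 0.17, unadjusted p = 0.0381, limma adjusted p = 0.553). Bmp4 (ENSMUSG00000021835), a secreted ligand of premyelinating cells, had 94.7, 128, 108 and 82.9 in WT and 68.8, 66.3, 68.8 and 108 in cKO. In 3 cKO libraries it was below all of WT, and in cKO replicate 4 it was inside the WT range (log2 fold change −0.41 with an SE of 0.23, limma adjusted p = 0.624).

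Bcas1 (ENSMUSG00000013523), expressed by premyelinating and early myelinating cells, had the opposite sign. Its normalized reads were 4557, 3233, 4382 and 3947 in WT and 4613, 5764, 5654 and 4105 in cKO, so 3 cKO libraries were above all of WT and cKO replicate 4 was not. The mean was 4030 ± 590 in WT against 5034 ± 808 in cKO (SD, n = 4), for a log2 fold change of 0.32 (SE 0.14, unadjusted p = 0.0391, limma adjusted p = 0.556). Gpr17, a receptor gene of committed precursors, ranged from 1137 to 1905 in WT and from 1140 to 1949 in cKO. Neu4, a sialidase gene, ranged from 356 to 482 and from 417 to 523, and Itpr2, a calcium release channel gene, from 954 to 1234 and from 1058 to 1275. These 3 genes had log2 fold changes from 0.11 to 0.18, and their groups overlapped.

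The transcription factor genes had small negative fold changes, and their values split by library more than by group. Sox10 (ENSMUSG00000033006), the factor that oligodendrocytes need to express myelin genes, had 1144, 1143, 1725 and 1246 normalized reads in WT libraries and 965, 948, 1209 and 1366 in cKO (log2 fold change −0.22 with an SE of 0.16, limma adjusted p = 0.701). Olig1 (ENSMUSG00000046160), which is expressed from precursor to mature cell, had 3246, 2917, 3864 and 3323 in WT and 2855, 2621, 3272 and 3725 in cKO (log2 fold change −0.10, SE 0.12). For all 4 factors the highest library was WT replicate 3 and cKO replicate 1 was below every WT library, while cKO replicate 4 was above the WT mean. Olig2, which specifies the lineage, ranged from 737 to 1088 in WT and from 666 to 1023 in cKO. Myrf, which starts and maintains myelin gene expression after the last division, ranged from 1245 to 1949 and from 1055 to 1769. The median of these 4 genes was −0.017 without WT replicate 3, −0.051 without cKO replicate 1, −0.19 without WT replicate 2 and −0.24 without cKO replicate 4.

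Of the 25 mature genes 22 (88%) had a negative fold change, against 52.7% of all genes tested. At an unadjusted p under 0.05, 4 of the 25 (16%) were lower, against 4.6% of all genes tested. Ermn (ENSMUSG00000026830) encodes ermin, a cytoskeletal protein that appears late in myelination. It had 3919, 2875, 3608 and 3213 normalized reads in WT libraries and 2061, 1455, 2330.4 and 2871 in cKO. Every cKO library was below every WT library, though cKO replicate 4 and WT replicate 2 were nearly equal. The mean was 3404 ± 456 in WT against 2179 ± 589 in cKO (SD, n = 4), or 64.0% of WT, with a log2 fold change of −0.68 (SE 0.18, unadjusted p = 0.00397, limma adjusted p = 0.496). The authors' deposited table gives Ermn an FDR of 0.0384, the 1 lineage gene of the 39 with an FDR under 0.05 there, where 0.305% of 34094 genes are lower and 0.352% higher at that FDR. In GENCODE M21 an exon of Galnt5 lies opposite an exon of Ermn, and Galnt5 had between 0 and 26.01 normalized reads over the libraries.

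Opalin (ENSMUSG00000050121), which encodes a membrane glycoprotein of myelin, had 1571, 1066, 1387 and 1462 normalized reads in WT libraries and 511, 684, 1056 and 1126 in cKO. Here 3 cKO libraries were below all of WT, and cKO replicate 4 was above WT replicate 2. The mean was 1371 ± 217 in WT against 844 ± 295 in cKO (SD, n = 4), or 61.6% of WT, with a log2 fold change of −0.76 (SE 0.24, unadjusted p = 0.0108, limma adjusted p = 0.496). For Ermn and Opalin the unadjusted p was under 0.05 in 15 of 15 alternative settings, from 0.000659 to 0.0144 for Ermn and from 0.00291 to 0.0383 for Opalin. The adjusted p passed in none of these, and for both genes ranged up to 0.777, from 0.333 for Ermn and 0.353 for Opalin.

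**Figure D2:**
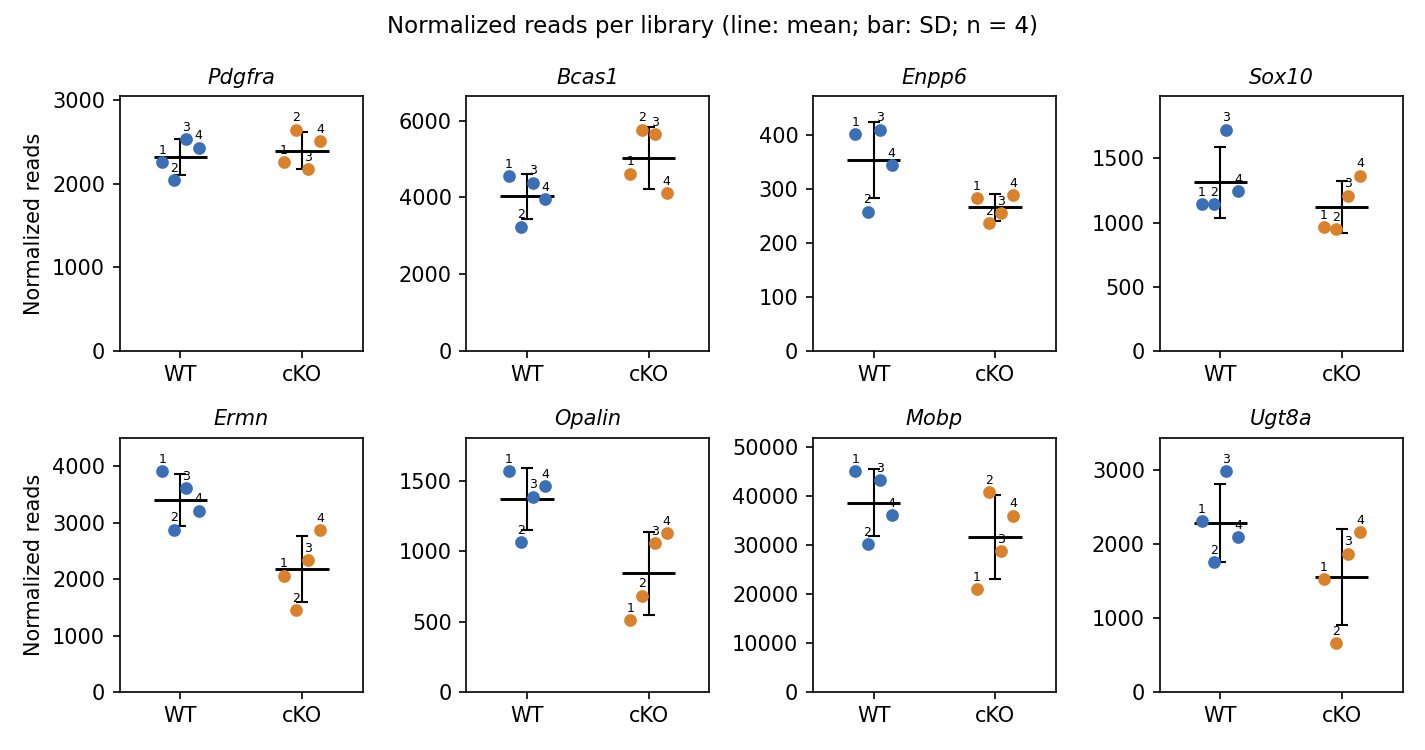
Normalized reads (y axis, from 0) of 8 lineage genes in each library, numbered by replicate, with the group mean as line and the SD as bar (n = 4). Ermn has no overlap between groups, Opalin overlaps at 1 cKO library, Pdgfra is level, and Bcas1 has 3 cKO libraries above all of WT. cKO replicate 1 is lowest for Mobp and Opalin, and cKO replicate 2 for Ugt8a and Ermn.

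The sequence before the transcription start is shown for a few of these genes, to set mature genes beside a precursor gene. The windows are the 250 bases before the start, from RefSeq on GRCm38.p6, while the submitters' notes name mm9, so the coordinates are not those of the authors' alignment. Capitals mark matches, on either strand, to the words ACAAAG and ACAATG, which SOX factors bind, and CTGGCAC, a core of the MYRF motif. Ermn lies at chr2:58052865-58053114 (minus strand), Opalin at chr19:41077114-41077363 (minus strand), Mobp, a gene of compact myelin, at chr9:120149492-120149741 (plus strand) and Pdgfra at chr5:75152001-75152250 (plus strand).
Ermn: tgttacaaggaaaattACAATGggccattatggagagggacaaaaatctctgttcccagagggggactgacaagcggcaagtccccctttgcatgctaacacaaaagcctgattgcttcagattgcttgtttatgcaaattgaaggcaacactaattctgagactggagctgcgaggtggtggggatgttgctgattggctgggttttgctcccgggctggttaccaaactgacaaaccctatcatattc
Opalin: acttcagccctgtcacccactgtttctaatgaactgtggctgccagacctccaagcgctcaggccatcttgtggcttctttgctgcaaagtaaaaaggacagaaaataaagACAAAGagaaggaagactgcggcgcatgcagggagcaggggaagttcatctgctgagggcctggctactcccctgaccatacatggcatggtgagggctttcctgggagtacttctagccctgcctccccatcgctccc
Mobp: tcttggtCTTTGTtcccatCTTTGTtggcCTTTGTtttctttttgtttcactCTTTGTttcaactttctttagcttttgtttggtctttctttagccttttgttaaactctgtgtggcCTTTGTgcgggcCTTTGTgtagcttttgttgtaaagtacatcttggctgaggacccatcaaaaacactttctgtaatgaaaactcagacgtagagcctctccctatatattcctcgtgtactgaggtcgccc
Pdgfra: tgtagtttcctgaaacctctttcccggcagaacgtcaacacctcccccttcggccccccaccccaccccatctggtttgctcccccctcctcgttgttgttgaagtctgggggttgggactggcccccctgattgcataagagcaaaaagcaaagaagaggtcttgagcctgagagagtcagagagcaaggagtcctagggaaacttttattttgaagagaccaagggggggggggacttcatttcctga
The Mobp window holds 6 matches to ACAAAG, all on the minus strand, the Ermn window 1 match to ACAATG and the Opalin window 1 to ACAAAG, and the Pdgfra window holds no match to these letters. Mobp had the most matches of any lineage window. Other mature genes, among them Ninj2, Ppp1r14a, Mog, Mal, Cldn11 and Ugt8a, had no match to any of the 3 words. Counted by window, 12 of 26 mature windows (46.2%) and 0 of 4 precursor windows held any of the 3 words, against 28.4% of 32851 windows. The set of RefSeq promoter windows used here covered 29 of the 39 genes, and Mbp, Sox10 and Myrf were among those it lacked. Some genes had several windows that can overlap, so each gene was counted once if any of its windows held the letters. ACAAAG was found in 8 of 20 mature genes (40.0%), namely Apod, Cnksr3, Cnp, Gjb1, Mag, Mobp, Opalin and Tspan2, and in 0 of 4 precursor genes, against 18.6% of 27025 genes. ACAATG was found in 3 of the 20 (15%), against 12.2%, and CTGGCAC in 3 (15%), against 4.83%. Genes with more windows have more chances of a match. No matches overlapped each other within a window of a lineage gene, and a match is a description of the letters, not of a bound site.

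Ninj2 (ENSMUSG00000041377), an adhesion protein gene, had the lowest fold change and few reads. It had 38.5, 33.5, 53.0 and 78.6 normalized reads in WT libraries and 21.2, 14.1, 26.2 and 39.3 in cKO, with 3 cKO libraries below all of WT (log2 fold change −1.0 with an SE of 0.38, unadjusted p = 0.0248, limma adjusted p = 0.521). Ppp1r14a (ENSMUSG00000037166), which encodes an inhibitor of myosin phosphatase, had 575, 534, 505 and 482 in WT and 265, 292, 428 and 524 in cKO. WT was tight and cKO was spread, from about the WT level in replicate 4 down to replicates 1 and 2 (log2 fold change −0.53 with an SE of 0.20, unadjusted p = 0.0256, limma adjusted p = 0.524). Tmem125 (ENSMUSG00000050854), a transmembrane protein gene, had 237, 195, 244 and 171 in WT and 139, 101.4, 147 and 225 in cKO. In it too cKO replicate 4 was the 1 cKO library inside the WT range (log2 fold change −0.51 with an SE of 0.24, limma adjusted p = 0.587).

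Gjb1 (ENSMUSG00000047797), which encodes the gap junction protein connexin of myelin, had 408, 369.8, 371 and 439.6 normalized reads in WT libraries and 237, 181, 427 and 336 in cKO (log2 fold change −0.50 with an SE of 0.23, limma adjusted p = 0.587). Here cKO replicate 3, not replicate 4, was inside the WT range. Mog (ENSMUSG00000076439), an outer surface protein of the sheath, had 2448, 1868, 2570.5 and 2082 in WT and 1484, 2007, 1935 and 2030.0 in cKO (log2 fold change −0.27 with an SE of 0.13, limma adjusted p = 0.592). Of the cKO values, 3 lay within the WT range and 1 below it. Car2 (ENSMUSG00000027562), the carbonic anhydrase of oligodendrocytes, had 7274, 7264, 7202 and 7698 in WT and 6560.4, 4501, 7022 and 6871 in cKO. Its groups did not overlap, but apart from cKO replicate 2 the distance was small (log2 fold change −0.26 with an SE of 0.13, limma adjusted p = 0.594). Ermn and Car2 were the only lineage genes whose groups did not overlap, 2 of 39 (5.13%) lower in cKO, against 2.35% of all genes tested, and 0 were higher, against 2.57%.

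By role, 12 mature genes encode proteins of the sheath and its membranes, with a median of −0.24. Of these 11 had a negative fold change, where 52.7% of all genes tested did. Mbp, whose product compacts the sheath, had 25635 ± 3557 normalized reads in WT against 22384 ± 4159 in cKO (SD, n = 4), 87.3% of WT. Mobp had 45087, 30104, 43164 and 36049 in WT and 21018, 40738, 28750.0 and 35944 in cKO, 81.9% of WT by the means. The groups overlapped widely in both genes, with log2 fold changes of −0.20 (SE 0.14) and −0.31 (SE 0.21). Mag, an adhesion protein next to the axon, ranged from 2764 to 4596 in WT and from 2370.2 to 3576 in cKO, 82.4% of WT by the means. Cnp, an enzyme of uncompacted myelin, ranged from 9060.1 to 11943 and from 7716 to 10581, or 86.4%. Both had a higher lowest and a higher highest value in WT. Cldn11, the tight junction protein of the sheath, ranged from 3596 to 5589 and from 2848 to 5014, and Tspan2, a tetraspanin, from 4397 to 5736 and from 3596 to 5218. Mal, a proteolipid that sorts membrane cargo, stood at 96.9%, with 5775 to 10404 in WT and 5206 to 9922 in cKO.

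The 6 enzyme and carrier genes had a median of −0.28, with 5 negative, where 52.7% of all genes tested were. None was at an unadjusted p under 0.05. Ugt8a (ENSMUSG00000032854), which makes the myelin lipid galactosylceramide, had 2306, 1752, 2991 and 2091 normalized reads in WT libraries and 1527, 664, 1873 and 2157 in cKO. Most of its difference lay in cKO replicate 2 (log2 fold change −0.66 with an SE of 0.36, limma adjusted p = 0.633). Fa2h, which hydroxylates the fatty acids of that lipid, ranged from 861 to 1489 in WT and from 555 to 1095 in cKO. Trf, the iron carrier transferrin, ranged from 6580 to 9673 and from 4306 to 8739. Apod, a lipid-binding apolipoprotein gene, ranged from 3942 to 5402 in WT and from 2912 to 7398 in cKO, where 2 libraries were below and 2 above all of WT. The other mature genes include Gpr37, a receptor gene with 2038 to 3045 in WT and 1694 to 2715 in cKO, and Hapln2, a link protein of the matrix around nodes, with 567 to 907 and 422 to 948. Evi2a, at 78.8%, ranged from 350 to 1196 in WT and from 270 to 869 in cKO, and it shares exons on 1 strand with the gene model Evi2. Mobp and Trf share exons in the same way with the gene models Gm38642 and Gm20425, so the reads of all 3 genes are uncertain.

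The mature genes that did not share the negative sign were Qdpr, Pllp and Cnksr3. Qdpr (ENSMUSG00000015806), which recycles tetrahydrobiopterin and is not restricted to this lineage, had 3969, 6473, 3626 and 3271 normalized reads in WT libraries and 2848, 5436, 7180.1 and 4048 in cKO (log2 fold change 0.14, SE 0.32). Pllp (ENSMUSG00000031775), a myelin proteolipid gene, had 1370.1, 1012, 1314 and 1318 in WT and 1580.3, 1035, 1350.4 and 1299 in cKO (log2 fold change 0.065, SE 0.14). It was the 1 mature gene with no cKO library below all of WT. Cnksr3 (ENSMUSG00000015202), a scaffold protein gene, had 209, 182, 195 and 193 in WT and 159, 199, 189 and 241 in cKO (log2 fold change 0.00093, SE 0.16). An exon of Pllp is also overlapped by the gene model Gm45767, which had 191 to 303 normalized reads in WT and 144 to 222 in cKO. Each of the 3 genes overlapped between groups, and each was negative in at least 1 alternative setting.

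The difference in mature genes was unequal among the cKO libraries. Averaged over the 25 genes, cKO replicates 1 to 4 differed from the WT mean by −0.61, −0.45, −0.20 and 0.011 on the log2 scale, and WT replicates 1 to 4 by 0.078, −0.21, 0.12 and 0.013. cKO replicate 4 thus stood at the WT mean, cKO replicate 3 beside the lowest WT library, and cKO replicates 1 and 2 below all of WT. cKO replicate 1 was below every WT library for 23 of the 25 genes, cKO replicate 2 for 12, cKO replicate 3 for 10 and cKO replicate 4 for 3. The share of all genes tested below every WT library in each cKO library was not counted, so these numbers lack a background share. The precursor genes of the same libraries differed from the WT mean by 0.055, 0.053, −0.14 and 0.096, so the order of the cKO libraries was not the same in the 2 stages. The premyelinating genes differed by −0.046, −0.055, −0.017 and 0.065.

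**Figure D3:**
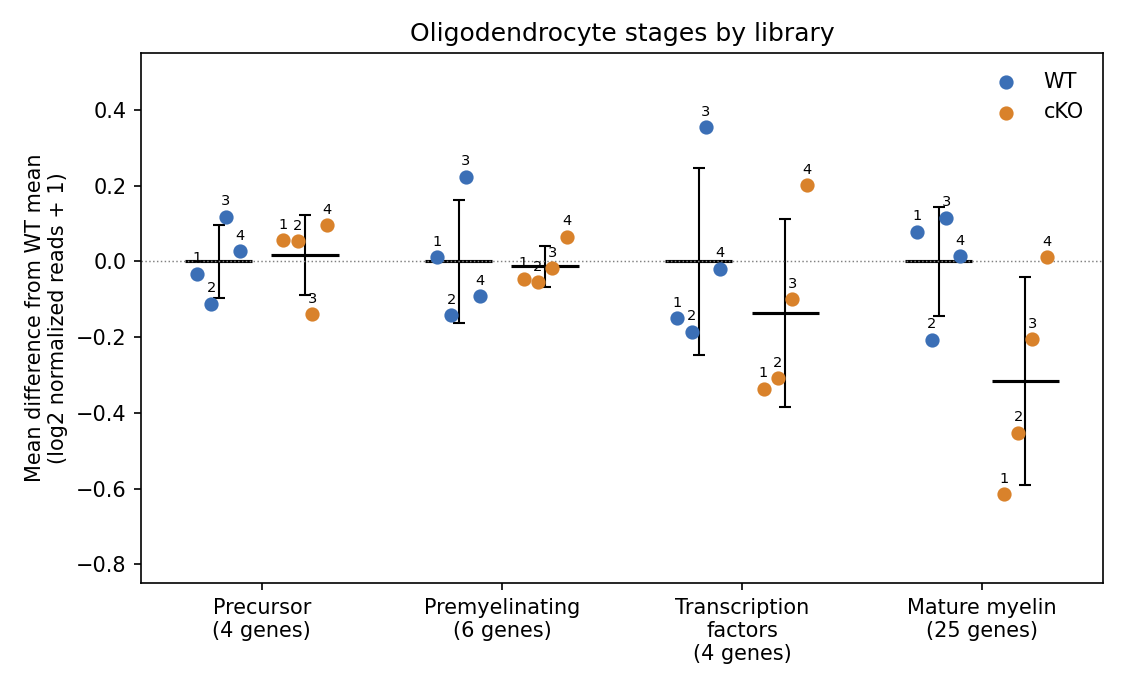
Mean difference from the WT mean (y axis, log2) over the genes of each stage, 1 numbered point per library, with the group mean as line and the SD over libraries as bar (n = 4). Mature genes run from −0.61 to 0.011 in cKO and from −0.21 to 0.12 in WT, while the precursor genes of both groups lie between −0.14 and 0.12.

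A ratio of stages within a library does not depend on the library's size factor. The mean log2 level of the mature genes minus that of the precursor genes was 0.33, 0.12, 0.21 and 0.20 in WT replicates 1 to 4 and −0.45, −0.29, 0.15 and 0.13 in cKO replicates 1 to 4. In cKO replicates 1 and 2 it lay below all of WT, and in replicates 3 and 4 it lay within the WT range. The group means were 0.22 ± 0.084 in WT against −0.12 ± 0.30 in cKO (SD, n = 4). Against the premyelinating genes the same difference was 1.66 ± 0.10 in WT against 1.36 ± 0.23 in cKO, with 1.09 in cKO replicate 1 and 1.61 in cKO replicate 4.

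The mature genes also differed in which cKO library was lowest. cKO replicate 1 was the lowest of all 8 libraries for 13 of the 25, namely Mbp, Mog, Mobp, Cnp, Cldn11, Opalin, Mal, Ppp1r14a, Tspan2, Cnksr3, Apod, Qdpr and Evi2a. cKO replicate 2 was the lowest for 10, namely Mag, Ermn, Gjb1, Ugt8a, Fa2h, Trf, Gpr37, Tmem125, Ninj2 and Car2. These lists cannot share a gene, since each gene has 1 lowest library. Of the 10 genes lowest in cKO replicate 2, 9 were below every WT library in cKO replicate 1 as well, all but Gpr37. In cKO replicate 1 this held for 23 of all 25 mature genes, so the 9 of 10 does not show that low values were shared. Of the 13 genes lowest in cKO replicate 1, 2 (Opalin and Ppp1r14a) were below every WT library in cKO replicate 2, as were 12 of all 25. In cKO replicate 2 as many as 7 mature genes were above the WT mean, among them Mobp and Apod, while in cKO replicate 1 only Pllp was. The median exonic length of the 13 genes was 2778 bases and that of the 10 genes 3164 bases. Across 11841 genes with many reads, the correlation of a library's difference from the WT mean with log2 exonic length was 0.028 in cKO replicate 1 and −0.14 in cKO replicate 2, and it lay between −0.14 and 0.19 over the 8 libraries. The part of gene length in these values was not tested.

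**Figure D4:**
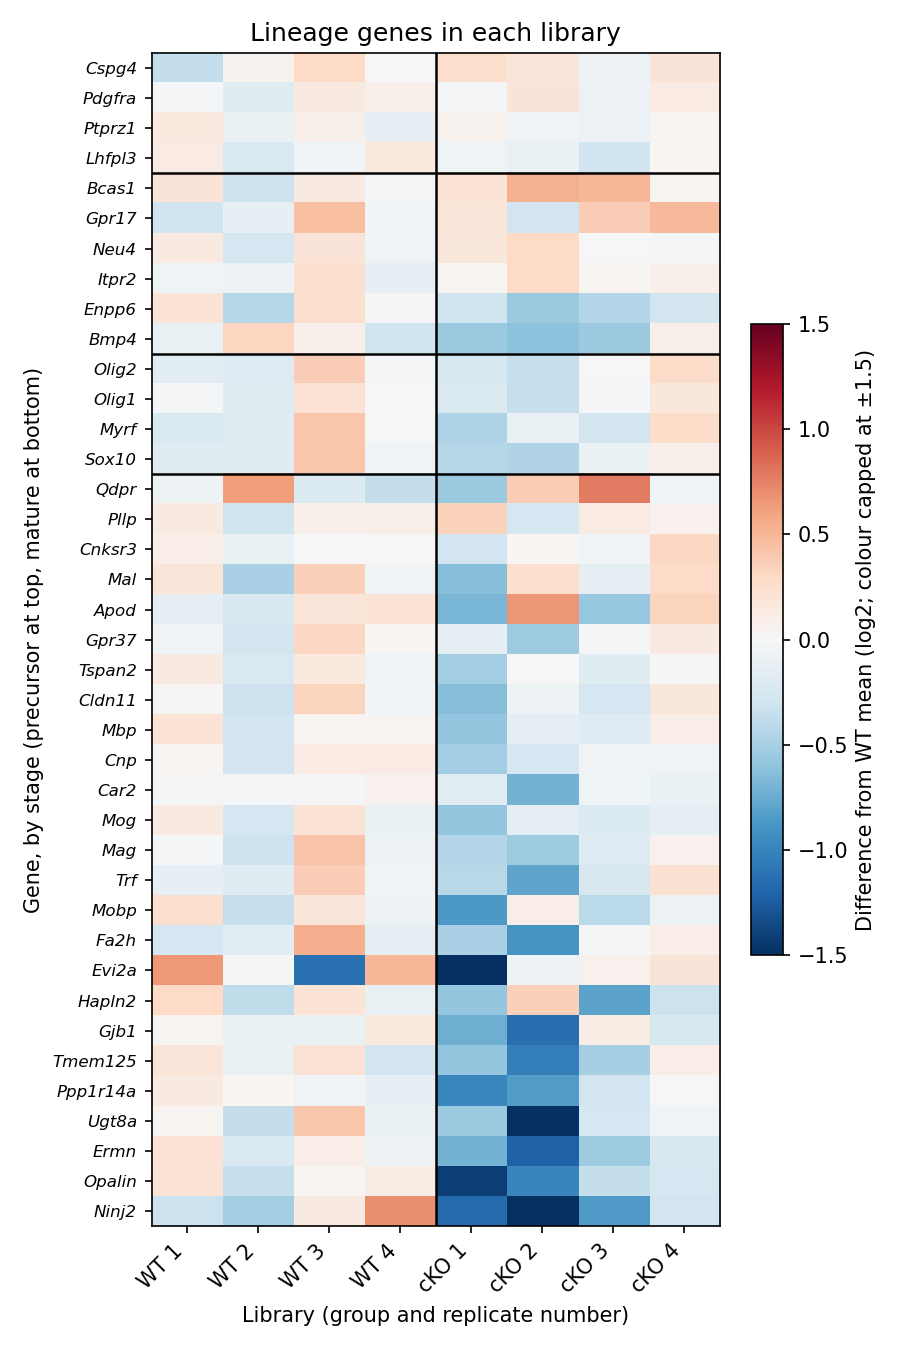
Difference of each lineage gene (rows, by stage) from its WT mean in each library (columns), as log2 in colour capped at ±1.5. In cKO replicate 1 24 of the 25 mature genes lie below the WT mean, in cKO replicate 2 18 do, and cKO replicate 4 has 14 above it.

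Further genes of the lineage were read from lists that do not hold the 39. Of 47 other genes of myelinating cells 39 (83.0%) had a negative fold change, with a median of −0.19, against 52.7% of all genes tested. At an unadjusted p under 0.05, 8 of these (17.02%) were lower and 0 higher, against 4.6% and 4.07% of all genes tested. Aspa, which breaks down N-acetylaspartate, had 945, 645, 790.2 and 980.2 normalized reads in WT libraries and 394, 434, 435 and 565 in cKO. Every cKO library of Aspa was below every WT library, with a log2 fold change of −0.87 (SE 0.16) and a limma adjusted p of 0.261, the lowest of any lineage gene listed. Aspa was the 1 gene of the 47 (2.13%) that was lower without overlap between groups, near the 2.35% of all genes tested, and 0 were higher. The authors' deposited table gives Aspa an FDR of 4.77e-05.

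Others of these genes with an unadjusted p under 0.05 were Gjc3, a connexin gene (log2 fold change −0.37, SE 0.10), Anln, an actin-binding protein gene (−0.41, SE 0.14), and Sept4, which encodes a septin of the sheath (−0.25, SE 0.090). Josd2 and Plekhh1 had −0.36 (SE 0.13) and −0.52 (SE 0.20). Unlike the 4 precursor genes above, 10 of 13 other precursor genes (76.9%, against 52.7% of all genes tested) had a negative fold change, with a median of −0.13. None had an unadjusted p under 0.05, and with 13 genes that count is near the 4.6% of all genes that were lower. Of 9 other premyelinating genes 4 were negative, with a median of 0.063. In that list Nkx6-2, a homeobox gene of myelinating cells, had 444, 339, 344 and 329 normalized reads in WT libraries and 231, 300.2, 259 and 315 in cKO, with no overlap between groups (log2 fold change −0.40 with an SE of 0.15, limma adjusted p = 0.519). Fyn, a kinase gene with a role in myelination that neurons express too, had 4515 ± 380 in WT against 5235 ± 385 in cKO (SD, n = 4), a log2 fold change of 0.21 (SE 0.083, limma adjusted p = 0.529).

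Several other cell types in the tissue also had markers with mostly the same sign. All 12 choroid plexus markers, of which Ttr and Enpp2 had the most reads, had a negative fold change, against 52.7% of all genes tested. Their median was −0.76, with summed reads from 12761 to 242932 in WT and from 19611 to 71475 in cKO. The cKO sums thus lay inside the WT range, and the spread among WT libraries was wide. At an unadjusted p under 0.05, 1 of them (8.33%) was lower, against 4.6% of all genes tested. All 12 ependymal markers, led by Dnah9 and Rarres2, were negative as well (median −0.40), 3 of them (25%) at an unadjusted p under 0.05. Their summed reads ran from 2901 to 4662 in WT and from 2625 to 3628 in cKO. Of 12 general neuronal markers, led by Camk2a and Snap25, 11 were positive (median 0.12), against 47.3% of all genes tested. Their summed reads ran from 389748 to 448153 in WT and from 433284 to 481762 in cKO. At an unadjusted p under 0.05, 5 of these 12 (41.7%) were higher, against 4.07% of all genes tested. Of the 12, 3 were higher with no overlap between groups, as were 2.57% of all genes tested. The authors' deposited table gives Syp, a synaptic vesicle gene in that list, an FDR of 0.0242. The 25% of ependymal markers that were lower was above the 16% of the mature genes and the 17.02% of the other genes of myelinating cells. The 41.7% of neuronal markers was also above these shares, but in the opposite direction. Choroid plexus reads were highest in WT replicate 2, the WT library with the lowest mature myelin level. Enpp2 is in the choroid plexus list and in that of myelinating cells, and the carrier gene Trf is expressed by choroid plexus too. The part of these cells in the myelin values was not tested.

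Markers of astrocytes had a median of 0.091 with 8 of 12 positive, and those of microglia 0.13 with 9 of 12 positive. Of all genes tested 47.3% were positive. Summed reads of astrocyte markers ran from 179175 to 233461 in WT and from 214647 to 227648 in cKO. Astrocyte and microglia markers thus did not have the negative median of the mature myelin genes, whereas the ependymal markers did (−0.40). These differences were not tested. Markers of endothelial cells (median −0.027), of mural cells and fibroblasts (0.057), of CA1 neurons (−0.037) and of dentate granule neurons (−0.087) lay closer to 0. At an unadjusted p under 0.05, 2 of 12 astrocyte and 2 of 12 microglia markers were higher (16.7% each), against 4.07% of all genes. Of CA1 markers 2 of 11 (18.2%), Fibcd1 and Dkk3, were higher. Both had no overlap between groups, where 2.57% of all genes tested were higher without overlap. Endothelial markers had 1 lower and 1 higher (8.33% each), and dentate markers 1 higher (9.09%). No gene in any of these lists passed the limma test across all genes.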

How the data were processed

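The authors deposited 1 table with a log2 value per gene and library, and beside it their own comparison of the groups, with a p-value and an FDR. STAR, StringTie, DESeq2 and mm9 are named, per the submitters' processing notes, without versions or roles. The annotation and the strand setting of the counting were not found in these sources. Per the labels' protocols, RNA was Trizol-extracted and a stranded mRNA kit was used. Each deposited log2 value is log2(reads / size factor + 1): 100% of values gave whole reads within 0.001 reads. Opposite each of 11 lineage genes another gene has exons in GENCODE M21, and their reads may not be told apart. Of these opposite genes, Dnajc7, which overlaps Cnp, had 5894 to 7052 normalized reads in WT and 6044 to 6668 in cKO. Lims2, which overlaps Gpr17, had 97.6 to 357 in WT and 149.6 to 402 in cKO.

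limma 3.58.1 in R 4.3.3 (trend and robust estimation, no covariate) compared 4 cKO with 4 WT libraries on these log2 values (pseudocount 1), for 26135 genes (4 or more libraries at a normalized value of 1 or above). Adjusted p is Benjamini-Hochberg over all of these, with a threshold of 0.05. The procedure was tested on simulated data. The members and lists were chosen with earlier results of these data known, so no test was made over a list, and the roles were assigned after the values were seen. Values of every library are given by a rule: the genes of lowest unadjusted p in each stage (up to 3 precursor, 3 premyelinating, 2 transcription factor and 8 mature) and up to 3 a stage opposite in sign to its median. Of the other lineage lists, up to 6 genes each with an unadjusted p under 0.05 are named (1 further gene of the rule is not reported here), and of cell type lists those with the most reads. Full values of Mobp and Ugt8a were added after they were seen. Figures were drawn with matplotlib 3.10.9. Alternatives were quantile normalization, no filter, a filter at 10, a pseudocount of 0.1, limma-voom on recovered reads, array weights, a replicate block and leaving out each library.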

Additional observations from a re-analysis of the deposited data

Results flagged for a closer look

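Single libraries stood apart from the other 3 of their group for 5 lineage genes, by a gap to the nearest library that was larger, as a share of the group's range, than Dixon's 95% critical value. In 88 groups of 4 values examined there were 6 such cases, where chance gives about 1 in 20 groups. Bmp4 had 108 normalized reads in cKO replicate 4, above the other cKO libraries. Itpr2 had 1234 in WT replicate 3 and 1275 in cKO replicate 2, each above the rest of its group. Fa2h had 1489 in WT replicate 3 and Car2 had 7698 in WT replicate 4, both above the other WT libraries. Pllp had 1012 in WT replicate 2, below the other WT libraries.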

How the results depend on the processing

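Over 15 alternative settings no lineage gene passed at an adjusted p under 0.05, in either direction, and the lowest adjusted p was 0.333. Across all genes, 4 were higher with array weights, 1 with limma-voom and 1 with the replicate block, which also left 1 lower gene. Leaving out 1 library gave 2 to 3 higher and 1 to 4 lower genes, with 1 lower gene without WT replicate 4. Lineage genes lower at an unadjusted p under 0.05 numbered 8 with limma-voom and 3 to 12 without 1 library. Those higher numbered 0 with quantile normalization, 0 with the replicate block and 0 to 1 without 1 library. Over all settings 30 of 39 lineage genes kept their sign. Ptprz1 was 0.017 with array weights and Cnksr3 −0.0092 with limma-voom. Without 1 library the log2 fold changes ran from −0.31 to 0.14 for Apod, −0.10 to 0.099 for Cnksr3, −0.70 to 0.059 for Evi2a, −0.22 to 0.14 for Mal, −0.19 to 0.047 for Olig2, −0.0095 to 0.094 for Pdgfra, −0.035 to 0.17 for Pllp, −0.055 to 0.036 for Ptprz1 and −0.073 to 0.37 for Qdpr. The precursor median was −0.035 with quantile normalization. Same-numbered WT and cKO libraries share only a number: their deviations correlated between −0.018 and 0.059. WT replicate 1 correlated best with cKO replicate 2 (0.087), and the highest value of any pair was 0.10, for WT replicate 3 with cKO replicate 4. With the replicate block 7 lineage genes were lower at an unadjusted p under 0.05. The causes of these changes were not tested. Ninj2, with 14 to 91 reads a library, is limited by depth.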
